A study of Bos taurus with 15 samples.

Results

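The genes described here encode proteins of mitosis, the kinetochore and the spindle. They were followed in bovine endometrial epithelial cells (bEECs), the cells that line the uterus, after culture with or without embryos. Members were the rows of the deposited RNA-seq table whose gene name is on a list of 50 genes, and 49 of the 50 were found among 19994 rows. The remaining name, MKI67, was not analysed here. Per the labels, primary cells scraped from the uteri of beef cows post mortem were pooled from 4 uteri, thawed at passage 3 and grown to 90% confluence. All wells received transwell inserts and the same synthetic oviductal fluid medium with serum, and all were harvested after 48 h. The group labelled Control bEEC held no embryos and is called cells alone. The group labelled Contact⎼ had in vitro produced day-5.5 morulae, in groups of 15 ± 1, inside the insert, away from the cells, and is called transwell. The group labelled Contact+ had such morulae lying directly on the cell layer and is called contact. Each group held 5 libraries, so the comparisons ask how the presence of embryos, and their touch, relate to messenger RNA of the epithelial cultures. Every culture came from one pooled stock of cells, so p-values here reflect variation among cultures of the stock rather than among animals.

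Dividing cells raise the transcripts of these genes together as they leave DNA synthesis and approach division, largely under B-MYB, the MuvB complex and the forkhead factor FOXM1. Cyclins A and B switch on the kinase CDK1 to start mitosis, condensins compact the chromosomes, and kinetochores couple them to the microtubules of the spindle. The spindle checkpoint holds the anaphase-promoting complex in check until all chromosomes are attached, after which separase opens the cohesin rings and cytokinesis parts the daughter cells. In the endometrium, proliferation of the lining epithelium is known to follow the ovarian steroids over the cycle.

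Values are the deposited normalized counts, in which each library's read counts were scaled by its size factor, and differences are on the log2(normalized count + 1) scale with their standard error (SE) from limma. A call is a Benjamini-Hochberg adjusted p under 0.05 over the 12559 genes tested, and all 49 members entered that test. Libraries go by the number in their title, and those of cells alone by their whole title, such as BEEC.84. Assigned reads lay between 12938091 and 19792557 in 13 libraries, against 4195091 in library 97 and 6104652 in library 108, both of the contact group. Library 97 had the fewest reads and held the highest value of its group for 35 of 49 members. The counts of members called are therefore given with and without it. Keratin transcripts were present in all cultures, with KRT8 between 29337 and 40317 normalized counts over the 15 libraries, and CDH1, the epithelial cadherin, averaged 1269.7 in cells alone. The epithelial markers EPCAM, CLDN4 and CLDN7 had at most 2, 6 and 2 reads in any library, however. Most genes on the list of stromal fibroblast markers were abundant, among them DCN at a mean of 34349.8 and COL1A1 at 102559 in cells alone. THY1, of the same stromal list, was nearly absent, with a mean of 3.05 in cells alone and at most 12 reads in any library. The label of epithelial cells is therefore carried by keratins and CDH1 but not by the whole marker list.

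With embryos in contact, 39 of the 49 members were called higher than in cells alone and 0 lower, where 7.17% of all genes tested were called higher and 5.78% lower. All 49 differences were positive, with a median of 0.62 and a range of 0.15 to 0.90 on the log2 scale, beside a median of -0.01 over all genes tested. Against the transwell group, contact cultures were called higher for 42 members and lower for 0, where 3.73% of all genes were called higher and 1.82% lower, and the median difference was 0.71 with a range of 0.07 to 0.98. Between the transwell group and cells alone, limma, edgeR and DESeq2 each called 0 members in either direction, and 1 member, ASPM, had an unadjusted limma p under 0.05. In that comparison 1.48% of all genes were called higher and 0.111% lower, and the members' median was -0.08 with a range of -0.43 to 0.11. Without library 97 the counts were 34 members higher than cells alone (median 0.53) and 34 higher than transwell (median 0.64), with 0 lower. The shares above are of the fit with all libraries. Over the fits that left out 1 library, 687 to 1102 of the 12559 genes were called higher and 473 to 980 lower than cells alone. Against transwell these ranges were 325 to 561 higher and 115 to 349 lower. The comparisons against cells alone share those 5 libraries, and both comparisons of the contact group share the contact libraries. In bulk cultures, fewer or more cells in division and less or more RNA of these genes per cell cannot be told apart.

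**Figure D1:**
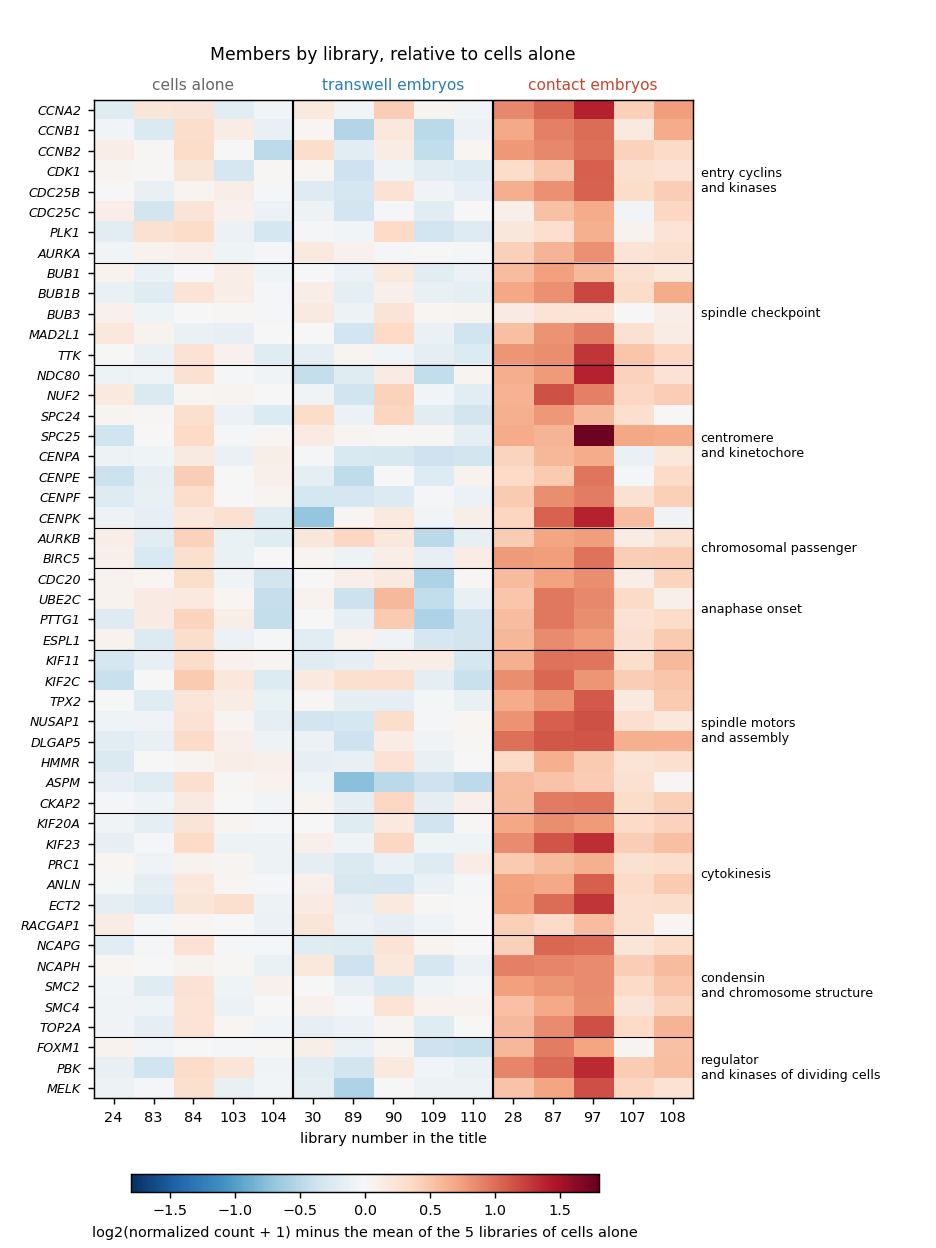
Heat map of the 49 members (rows, grouped by role) in the 15 libraries (columns, by library number), coloured by log2(normalized count + 1) minus the mean of the 5 libraries of cells alone, red above and blue below. The contact columns are red for nearly every row, most deeply in library 97 and least in libraries 107 and 108, and library BEEC.84 is the reddest column of cells alone.

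Among the cyclins and kinases of mitotic entry, 6 of 8 rose in contact cultures against both other groups (CCNA2, CCNB1, CCNB2, CDK1, CDC25B and AURKA). In the main fit CDC25C and PLK1 did not pass the test in either comparison. In every list of values that follows, the libraries are in the order BEEC.24, BEEC.83, BEEC.84, BEEC.103 and BEEC.104 for cells alone, 30, 89, 90, 109 and 110 for transwell, and 28, 87, 97, 107 and 108 for contact. CCNA2, cyclin A2, which serves DNA synthesis and mitotic entry, had normalized counts of 121, 165, 166, 124 and 136 in cells alone, 159, 137, 192, 146 and 136 under transwell embryos and 258, 289, 373, 189.6 and 238 under contact embryos. All contact libraries exceeded all libraries of cells alone, and library 107 alone fell below the highest transwell library, library 90. Against cells alone CCNA2 differed by 0.89 ± 0.15 on the log2 scale (limma adjusted p = 0.000296) and against the transwell group by 0.78 ± 0.15 (adjusted p = 0.00253). The linear fold against cells alone was 1.86.

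CDC25B, a phosphatase that releases CDK1 from its inhibitory phosphates, had 108, 97.8, 111, 117 and 106 in cells alone, 91.7, 87.1, 129, 102.6 and 97.2 under transwell embryos and 170.4, 192, 225, 135 and 146 under contact embryos. No contact library overlapped with either other group, and library 97 was the highest of them. Against cells alone CDC25B differed by 0.66 ± 0.13 on the log2 scale (limma adjusted p = 0.00183) and against the transwell group by 0.76 ± 0.13 (adjusted p = 0.00106). PLK1, the polo kinase of spindle poles, kinetochores and cytokinesis, had 169, 233, 241, 178 and 154 in cells alone, 188, 185, 248, 151 and 164 under transwell embryos and 220.2, 236, 299, 199.9 and 229 under contact embryos. Only library 97 lay above both other groups, and the other 4 contact libraries overlapped with them. For PLK1 the differences of 0.29 ± 0.14 and 0.35 ± 0.14 did not pass (limma adjusted p = 0.208 and 0.178).

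The B-type cyclins, which partner CDK1 through mitosis, averaged 186 ± 38.8 (SD, n = 5) in contact against 114 ± 18.2 in cells alone for CCNB1, and 115 ± 22.3 against 71.5 ± 13.9 for CCNB2. Their differences from cells alone were 0.69 ± 0.16 and 0.68 ± 0.17 (limma adjusted p = 0.00706 and 0.00969). The call of CCNB1 against cells alone was lost without both shallow libraries, 97 and 108 (adjusted p = 0.0648), and that of CCNB2 against transwell, at 0.71 ± 0.17 with limma adjusted p = 0.0145, was lost without library 97 (0.0519). CDK1, the kinase that drives mitosis, averaged 153 ± 41.3 in contact and 107 ± 13.5 in cells alone, and its values did not overlap with either other group. Its call against cells alone, at 0.49 ± 0.14 with limma adjusted p = 0.0279, was lost without library 97 (adjusted p = 0.0784), 87 (0.0567), BEEC.83 (0.0555) or BEEC.103 (0.0796). AURKA, the kinase of spindle poles, differed by 0.48 ± 0.11 (limma adjusted p = 0.00481), and by 0.43 ± 0.11 from transwell (0.0194). That second call was lost in fits without libraries 87 and 97 in turn (adjusted p for AURKA = 0.0589 and 0.0597). CDC25C, another phosphatase of CDK1, was 0.32 ± 0.15 above cells alone and did not pass (limma adjusted p = 0.171).

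Of the 5 spindle checkpoint genes, which delay anaphase while chromosomes are unattached, BUB1, BUB1B, MAD2L1 and TTK rose against both other groups and BUB3 passed neither test. BUB1B encodes BUBR1, a part of the inhibitor of the anaphase-promoting complex, and had normalized counts of 149, 139, 192, 175 and 157 in cells alone, 175, 143, 172, 147 and 142 under transwell embryos and 263, 285, 373, 203 and 257 under contact embryos. The contact libraries stood above all 10 others, with library 107 the lowest of them. Against cells alone BUB1B differed by 0.74 ± 0.13 on the log2 scale (limma adjusted p = 0.000465) and against the transwell group by 0.80 ± 0.13 (adjusted p = 0.000502).

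TTK, the kinase MPS1 that starts the checkpoint signal at kinetochores, had 60.3, 55.2, 71.8, 63.4 and 51.5 in cells alone, 53.6, 62.3, 58.2, 53.6 and 50.7 under transwell embryos and 104.5, 108, 148, 85.7 and 77.8 under contact embryos. Here too no contact library overlapped with the other groups. Against cells alone TTK differed by 0.76 ± 0.15 on the log2 scale (limma adjusted p = 0.00181) and against the transwell group by 0.87 ± 0.15 (adjusted p = 0.00106). BUB3, which carries BUB1 and BUBR1 to the kinetochore and also takes part in RNA splicing, had 1173, 1057, 1115, 1127 and 1093 in cells alone, 1244, 1048, 1304, 1137 and 1155 under transwell embryos and 1230.5, 1319.6, 1324, 1107 and 1212 under contact embryos. Its groups overlapped, with library 107 below the highest library of cells alone and libraries 28, 107 and 108 below the highest transwell library. BUB3 had the smallest difference of all members in both contact comparisons, at 0.15 ± 0.07 and 0.07 ± 0.07 (limma adjusted p = 0.155 and 0.572).

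BUB1, which recruits checkpoint proteins, averaged 385 ± 61.3 (SD, n = 5) in contact and 275 ± 18.9 in cells alone, without overlap, a difference of 0.47 ± 0.10 (limma adjusted p = 0.00341). MAD2L1, the MAD2 protein that binds CDC20, differed by 0.54 ± 0.17 from cells alone (limma adjusted p = 0.0363) and by 0.63 ± 0.17 from transwell (0.0295). The call of MAD2L1 against cells alone was lost in 7 of 15 fits that each left out 1 library, and its adjusted p was 0.0625 without library BEEC.83, 0.0824 without BEEC.84, 0.079 without BEEC.103, 0.0578 without BEEC.104, 0.0663 without 28, 0.105 without 87 and 0.108 without 97. Against transwell the call of MAD2L1 ended without library 89 (adjusted p = 0.0819), 110 (0.0749), 28 (0.0592), 87 (0.0831) or 97 (0.0963).

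**Figure D2:**
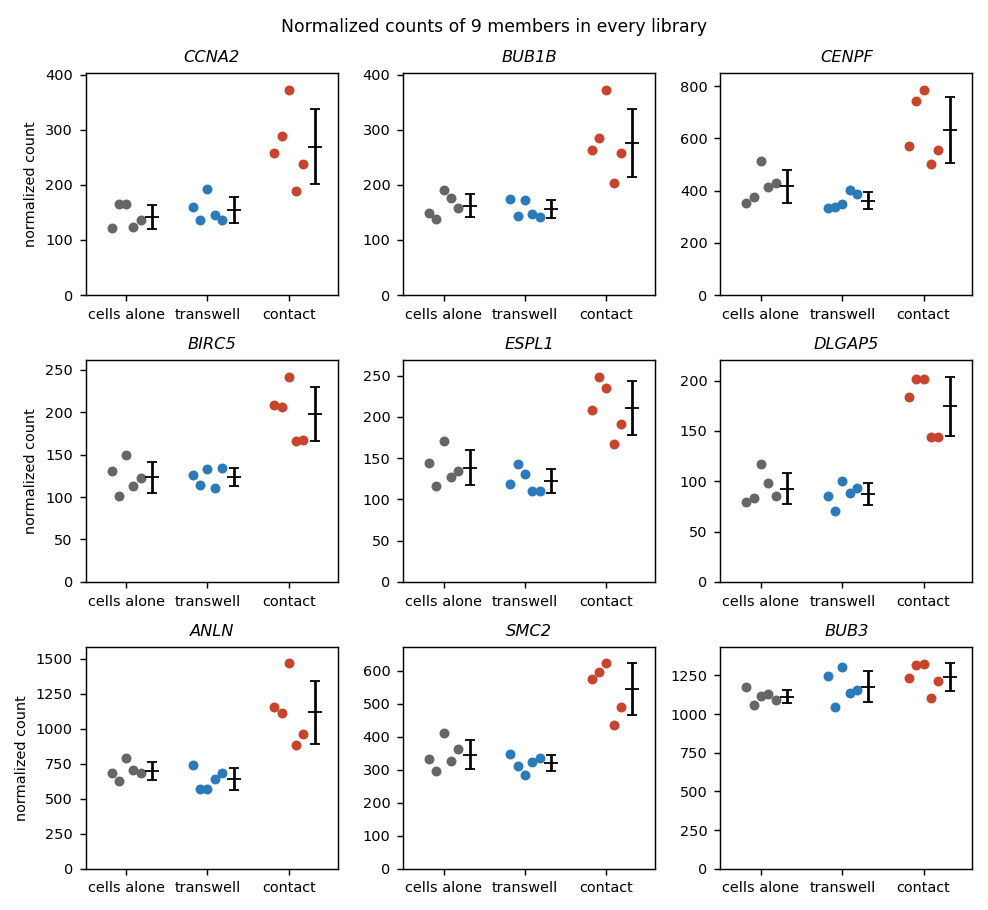
Normalized counts of 9 members in every library (points, in order of library number within a group) with the mean and SD of each group (black bars, n = 5); the vertical axes start at 0. For BUB1B, BIRC5, DLGAP5, ANLN and SMC2 all contact points stand above all others, CCNA2, CENPF and ESPL1 overlap with another group through library 107, and the groups of BUB3 overlap.

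All 8 centromere and kinetochore genes were higher in contact than in both other groups, with unadjusted limma p under 0.05. After adjustment CENPF, NDC80, NUF2 and SPC25 passed against both groups. CENPA and CENPE passed the test against transwell and not against cells alone, and CENPK and SPC24 passed neither test. The authors' deposited table called 6 of the 8 against cells alone and 7 against transwell, CENPK in both. CENPF, a large protein of the outer kinetochore that gathers before mitosis, had normalized counts of 352, 375, 514, 413 and 429 in cells alone, 333, 336, 349, 404 and 385 under transwell embryos and 572, 742, 786, 502 and 557 under contact embryos. All contact libraries exceeded all transwell libraries, and library 107 lay just below library BEEC.84 of cells alone. Against cells alone CENPF differed by 0.59 ± 0.12 on the log2 scale (limma adjusted p = 0.00181) and against the transwell group by 0.79 ± 0.12 (adjusted p = 0.000217).

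NUF2, a subunit of the NDC80 complex that grips microtubules, had 121, 90.1, 110.3, 111 and 108 in cells alone, 103.1, 83.6, 144, 103.8 and 93.9 under transwell embryos and 166, 240.4, 202, 139.8 and 146 under contact embryos. Its contact values were above every library of cells alone, and library 107 overlapped with transwell library 90. Against cells alone NUF2 differed by 0.70 ± 0.15 on the log2 scale (limma adjusted p = 0.00357) and against the transwell group by 0.75 ± 0.15 (adjusted p = 0.00416). The partners NDC80 and SPC25 differed from cells alone by 0.70 ± 0.17 and 0.88 ± 0.21 (limma adjusted p = 0.00971 and 0.00643). SPC24, the remaining subunit of that complex, differed by 0.46 ± 0.17 and did not pass (limma adjusted p = 0.0748), except without library 90 (0.0469) or 108 (0.0232). Against transwell SPC25 differed by 0.86 ± 0.21 (limma adjusted p = 0.0144, and 0.0604 without libraries 97 and 108). It was the member with the fewest reads, averaging 26.7 ± 4.94 (SD, n = 5) in cells alone and 51.9 ± 21.7 in contact.

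CENPE, the kinesin that moves chromosomes to the spindle's middle, had 137, 162, 244, 178 and 191 in cells alone, 159.9, 129.7, 179.7, 152 and 186 under transwell embryos and 231, 247, 349, 175 and 226 under contact embryos. Libraries 28, 107 and 108 of contact lay below library BEEC.84 of cells alone, and only library 107 overlapped with transwell. Against cells alone CENPE differed by 0.42 ± 0.16 on the log2 scale (limma adjusted p = 0.0983) and against the transwell group by 0.58 ± 0.16 (adjusted p = 0.0413). The call of CENPE against transwell was lost in 18 of the alternatives, and without single libraries its adjusted p was 0.0501 (BEEC.83), 0.0526 (BEEC.103), 0.051 (BEEC.104), 0.0809 (30), 0.113 (89), 0.0633 (109), 0.0696 (28), 0.0811 (87), 0.121 (97) and 0.0578 (108). Against cells alone CENPE passed without library BEEC.84 (0.0366) or 107 (0.0297).

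CENPA, the histone variant that marks the centromere, had 101, 102, 121, 98.6 and 116 in cells alone, 106, 88.8, 88.0, 82.6 and 84.7 under transwell embryos and 141, 163, 171, 98.8 and 123 under contact embryos. Library 107 overlapped with both other groups, and the other 4 contact libraries were above them. Against cells alone CENPA differed by 0.35 ± 0.13 (limma adjusted p = 0.0934, and 0.015 without library 107), and against transwell by 0.61 ± 0.13 (0.00814, and 0.0505 without libraries 97 and 108). The transwell group stood below cells alone by 0.26 ± 0.13 for this gene, a difference that did not pass (limma adjusted p = 0.647). CENPK, of the inner kinetochore, had a difference of 0.66 ± 0.22 from cells alone with a wide error, and library 108 was its lowest contact library (limma adjusted p = 0.0541, but 0.00945 without library 108, 0.0355 without 30 and 0.0416 without 90).

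The chromosomal passenger complex corrects faulty attachments and later marks the site of cytokinesis. BIRC5, survivin, which anchors that complex to the centromere, had normalized counts of 130.3, 101, 149.6, 113 and 122 in cells alone, 126, 114, 133, 110.5 and 134 under transwell embryos and 209, 206, 242, 165 and 167 under contact embryos. All contact values were above the 10 others, with libraries 107 and 108 the lowest. Against cells alone BIRC5 differed by 0.68 ± 0.12 on the log2 scale (limma adjusted p = 0.000611) and against the transwell group by 0.67 ± 0.12 (adjusted p = 0.00158). AURKB, its kinase, had 123, 98.8, 150.5, 103.3 and 96.7 in cells alone, 131, 147, 129, 80.3 and 101 under transwell embryos and 155, 185, 192, 124 and 137 under contact embryos. Libraries 28, 87 and 97 of contact lay above all others, whereas 107 and 108 overlapped with both groups. For AURKB neither difference passed, at 0.47 ± 0.16 and 0.44 ± 0.16 (limma adjusted p = 0.0687 and 0.135), although the first passed without library BEEC.84 (0.0321), 107 (0.0383) or 109 (0.0374).

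At the onset of anaphase, separase (ESPL1), its inhibitor securin (PTTG1) and the activator CDC20 rose in contact against both groups, and the ubiquitin-conjugating enzyme UBE2C passed neither test. ESPL1, which cuts the cohesin that holds sister chromatids, had normalized counts of 144, 116, 171, 128 and 135 in cells alone, 119, 143, 131, 110.5 and 109.6 under transwell embryos and 209, 249, 235, 168 and 191 under contact embryos. Contact exceeded transwell in all libraries, and library 107 overlapped with library BEEC.84 of cells alone. Against cells alone ESPL1 differed by 0.60 ± 0.12 on the log2 scale (limma adjusted p = 0.00238) and against the transwell group by 0.77 ± 0.12 (adjusted p = 0.00045).

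CDC20, which activates the anaphase-promoting complex and is the target of the checkpoint, had 108, 106, 129, 97.9 and 82.2 in cells alone, 103.9, 110.1, 117, 70.3 and 105 under transwell embryos and 154, 172, 185, 113 and 137 under contact embryos. Library 107 overlapped with both other groups. Against cells alone CDC20 differed by 0.53 ± 0.15 on the log2 scale (limma adjusted p = 0.0251) and against the transwell group by 0.58 ± 0.15 (adjusted p = 0.0284). The first of these calls of CDC20 was lost without library BEEC.103 (adjusted p = 0.0538), BEEC.104 (0.0714), 28 (0.0535), 87 (0.0735) or 97 (0.0791), and the second without 30 (0.0514), 109 (0.0567), 28 (0.0605), 87 (0.0762) or 97 (0.0933). UBE2C, which supplies ubiquitin to that complex, had 181, 193, 195, 177 and 129 in cells alone, 180.2, 132, 261, 127 and 158 under transwell embryos and 244, 336, 316, 220.4 and 184 under contact embryos. Its groups overlapped, with transwell library 90 above 3 of the contact libraries. Against cells alone UBE2C differed by 0.55 ± 0.19 on the log2 scale (limma adjusted p = 0.0633) and against the transwell group by 0.61 ± 0.19 (adjusted p = 0.0661). Both passed without library 90 (0.0159 and 0.00464) or 108 (0.0255 and 0.0295).

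PTTG1 averaged 115 ± 24.5 (SD, n = 5) in contact and 76.2 ± 17.3 in cells alone, and its call against cells alone was the weakest of the 39 (0.59 ± 0.19, limma adjusted p = 0.0455). That call of PTTG1 was lost in 14 alternatives, with adjusted p of 0.113, 0.0661, 0.0603, 0.116, 0.0535, 0.0547, 0.0511, 0.0748, 0.127 and 0.116 in fits without libraries BEEC.24, BEEC.83, BEEC.103, BEEC.104, 30, 89, 110, 28, 87 and 97 in turn. Against transwell, PTTG1 differed by 0.71 ± 0.19 (0.0326), and the call ended in fits without libraries 30, 89, 109, 110, 28, 87 and 97, with adjusted p of 0.0549, 0.0694, 0.0628, 0.0755, 0.0603, 0.0905 and 0.0981.

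Of the 8 spindle genes, 7 rose in contact against cells alone and all 8 against transwell. DLGAP5, which stabilizes the microtubules that pull on chromosomes, had the largest difference of the members in both contact comparisons, with normalized counts of 79.8, 83.3, 117, 97.9 and 85.8 in cells alone, 85.2, 70.8, 101, 88.1 and 93.0 under transwell embryos and 183, 201, 202, 144 and 144 under contact embryos. The contact libraries, at 144 or more, were all above the 10 others, at 117 or less. Against cells alone DLGAP5 differed by 0.90 ± 0.14 on the log2 scale (limma adjusted p = 7.78e-05) and against the transwell group by 0.98 ± 0.14 (adjusted p = 7.82e-05). The linear fold was 1.87 against cells alone and 1.97 against transwell.

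CKAP2, a spindle protein that promotes microtubule growth, had 629, 605, 711, 633 and 615 in cells alone, 657, 570.1, 826, 568 and 678 under transwell embryos and 946, 1216, 1227, 805 and 858 under contact embryos. Library 107 overlapped with transwell library 90, and no contact library overlapped with cells alone. Against cells alone CKAP2 differed by 0.64 ± 0.12 on the log2 scale (limma adjusted p = 0.000842) and against the transwell group by 0.61 ± 0.12 (adjusted p = 0.00301). ASPM, which holds microtubules at the spindle poles, had 213, 202, 289, 239 and 247 in cells alone, 225, 140.0, 169, 182 and 169 under transwell embryos and 347, 338, 326, 285 and 241 under contact embryos. All contact libraries were above all transwell libraries, while 107 and 108 overlapped with cells alone. Against cells alone ASPM differed by 0.37 ± 0.13 on the log2 scale (limma adjusted p = 0.0609) and against the transwell group by 0.80 ± 0.13 (adjusted p = 0.00036). Transwell cultures stood below cells alone by 0.43 ± 0.13 for ASPM, the one member with an unadjusted p under 0.05 there (0.00263, limma adjusted p = 0.134), and this passed without library 30 (0.0296). Without library BEEC.84, 30, 89, 90 or 108 the difference of ASPM between contact and cells alone passed as well (0.0346, 0.0432, 0.0467, 0.0462 and 0.0214).

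The other 5 spindle genes differed from cells alone by 0.40 (HMMR, a microtubule-binding protein) to 0.72 (KIF2C, a kinesin that takes microtubules apart). KIF11, the kinesin that separates the spindle poles, averaged 321 ± 60.5 (SD, n = 5) in contact and 197 ± 33.2 in cells alone. TPX2, which carries AURKA to the spindle, averaged 503 ± 121 and 315 ± 38.6. NUSAP1 bundles spindle microtubules and differed by 0.70 ± 0.17 (limma adjusted p = 0.00898). Against transwell KIF2C differed by 0.68 ± 0.18 (limma adjusted p = 0.0245) and HMMR by 0.43 ± 0.10 (0.0163). The call of KIF2C was lost without library 110 (0.0702), 28 (0.0603), 87 (0.0755) or 97 (0.0623), and that of HMMR without 87 (0.0579).

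**Figure D3:**
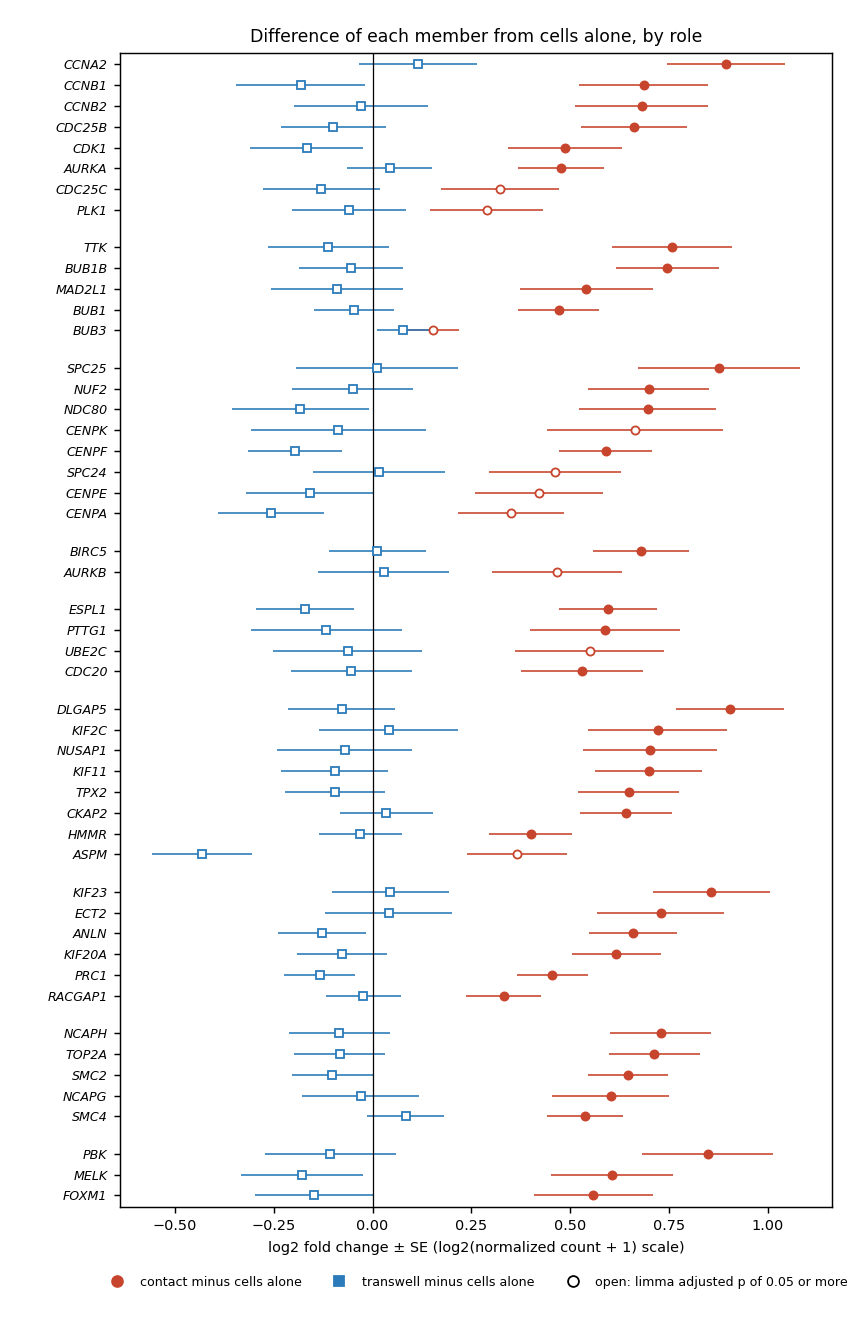
Log2 fold change ± SE of each member, grouped by role, for contact minus cells alone (red circles) and transwell minus cells alone (blue squares), with open symbols where the limma adjusted p was 0.05 or more. All 49 red symbols lie to the right of 0, from 0.15 for BUB3 to 0.90 for DLGAP5, and all blue squares are open, between -0.43 for ASPM and 0.11 for CCNA2.

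All 6 cytokinesis genes rose in contact against both groups. ANLN, anillin, which scaffolds the contractile ring, had normalized counts of 684, 624, 792, 705 and 682 in cells alone, 742, 568, 566, 638 and 685 under transwell embryos and 1155, 1114, 1465, 882 and 959.9 under contact embryos. Its contact libraries stood above all 10 others, with 107 the lowest. Against cells alone ANLN differed by 0.66 ± 0.11 on the log2 scale (limma adjusted p = 0.000353) and against the transwell group by 0.79 ± 0.11 (adjusted p = 0.000124).

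KIF23, a subunit of the centralspindlin complex at the midbody, had 187, 205, 265, 196 and 194 in cells alone, 221, 197, 268, 196 and 198 under transwell embryos and 375, 455, 524, 283 and 302 under contact embryos. Again no contact library overlapped, although library 107 at 283 was close to transwell library 90 at 268. Against cells alone KIF23 differed by 0.86 ± 0.15 on the log2 scale (limma adjusted p = 0.000491) and against the transwell group by 0.81 ± 0.15 (adjusted p = 0.00184). RACGAP1, the other subunit of centralspindlin, had 344, 306, 322, 312 and 291 in cells alone, 367, 292, 281, 299 and 314 under transwell embryos and 424, 399, 464, 386 and 321 under contact embryos. Library 108 overlapped with both other groups. Against cells alone RACGAP1 differed by 0.33 ± 0.09 on the log2 scale (limma adjusted p = 0.0229) and against the transwell group by 0.35 ± 0.09 (adjusted p = 0.0298). The first of these calls of RACGAP1 ended without library BEEC.83 (0.0557), BEEC.104 (0.0563), 28 (0.0607) or 97 (0.0746), and the second without 89 (0.0728), 90 (0.0524), 110 (0.0509), 28 (0.0744), 87 (0.063) or 97 (0.0992).

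KIF20A, a kinesin of the central spindle, PRC1, which bundles its microtubules, and ECT2, which activates RhoA at the cleavage furrow, differed from cells alone by 0.62 ± 0.11, 0.45 ± 0.09 and 0.73 ± 0.16 (limma adjusted p = 0.000742, 0.00158 and 0.00455). For each of the 3 genes every contact library was above the 10 others.

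The 5 genes of condensin and chromosome structure all rose in contact against both groups. SMC2, the core subunit of condensin, had normalized counts of 331, 296, 410.4, 327 and 363 in cells alone, 347, 312, 285, 325 and 336 under transwell embryos and 574, 597, 622, 435 and 488 under contact embryos. All contact values lay above all others, from library 107 upward. Against cells alone SMC2 differed by 0.65 ± 0.10 on the log2 scale (limma adjusted p = 0.000134) and against the transwell group by 0.75 ± 0.10 (adjusted p = 6.17e-05). TOP2A, the topoisomerase that untangles sister chromatids, had 397, 367, 492, 424 and 399 in cells alone, 374, 384, 427, 355 and 418 under transwell embryos and 619, 751, 924, 532 and 632 under contact embryos. Its contact libraries also stood clear of the 10 others. Against cells alone TOP2A differed by 0.71 ± 0.11 on the log2 scale (limma adjusted p = 0.000194) and against the transwell group by 0.80 ± 0.11 (adjusted p = 0.000142).

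NCAPG, a regulatory subunit of condensin I, had 152, 171, 209, 172 and 169.8 in cells alone, 149, 149, 207, 181 and 174 under transwell embryos and 235, 357, 349, 202 and 219 under contact embryos. Library 107 overlapped with both other groups, and the other 4 contact libraries did not. Against cells alone NCAPG differed by 0.60 ± 0.15 on the log2 scale (limma adjusted p = 0.00909) and against the transwell group by 0.63 ± 0.15 (adjusted p = 0.0134). The second of these calls of NCAPG was lost without libraries 97 and 108 (adjusted p = 0.0547). NCAPH, the subunit that closes the condensin ring, averaged 162 ± 23.0 (SD, n = 5) in contact and 96.9 ± 4.43 in cells alone. SMC4, the partner of SMC2, averaged 943 ± 157 and 645 ± 68.7, and its library 107 overlapped with both other groups.

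FOXM1, the transcription factor that activates many of these genes, had normalized counts of 68.4, 63.0, 65.8, 63.4 and 66.0 in cells alone, 70.6, 59.7, 67.9, 50.2 and 49.01 under transwell embryos and 98.9, 125, 108, 67.4 and 94.3 under contact embryos. Library 107 overlapped with both other groups. Against cells alone FOXM1 differed by 0.56 ± 0.15 on the log2 scale (limma adjusted p = 0.0156) and against the transwell group by 0.71 ± 0.15 (adjusted p = 0.0058). Without library 87 the first difference of FOXM1 did not pass (0.0588), nor did it without libraries 97 and 108 (0.0804). PBK, a kinase active in mitosis, had 66.0, 56.2, 91.5, 84.6 and 69.6 in cells alone, 62.5, 57.2, 82.0, 70.3 and 66.4 under transwell embryos and 134, 148, 185, 99.6 and 106 under contact embryos. All its contact values were above the 10 others. Against cells alone PBK differed by 0.85 ± 0.17 on the log2 scale (limma adjusted p = 0.00139) and against the transwell group by 0.95 ± 0.17 (adjusted p = 0.000968).

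MELK, a kinase whose transcript marks proliferating cells, had 75.7, 79.4, 99.2, 73.6 and 77.7 in cells alone, 72.2, 54.6, 80.5, 75.9 and 75.6 under transwell embryos and 116, 132, 181, 105 and 96.7 under contact embryos. Library 108 lay just below library BEEC.84 of cells alone, and contact did not overlap with transwell. Against cells alone MELK differed by 0.60 ± 0.15 on the log2 scale (limma adjusted p = 0.0115) and against the transwell group by 0.78 ± 0.15 (adjusted p = 0.00312).

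Across members, 23 of 49 had every contact library above every library of cells alone, where 7.45% of all genes tested did, and 0 lay wholly below, where 6.16% did. Against transwell the number was 27, where 3.44% did, and 0 lay wholly below, where 2.0% did. For 19 members every contact library was above all 10 other libraries, where 2.86% of all genes were. In the transwell comparison 0 members had groups that did not overlap, where 1.98% of all genes stood wholly higher and 0.971% wholly lower. The highest of the 15 libraries was a contact library for 49 of 49 members, where this held for 37.0% of all genes tested. The lowest was a transwell library for 73.5% of members, where this held for 42.4% of all genes, and one of cells alone for 26.5%, where this held for 22.9%. The same 39 members were called in both contact comparisons, CENPA, CENPE and ASPM against transwell only, and AURKB, BUB3, CDC25C, CENPK, PLK1, SPC24 and UBE2C in neither. Without library 97, calls against cells alone were lost for CDK1, MAD2L1, CDC20, PTTG1 and RACGAP1. Those lost against transwell were CCNB2, AURKA, MAD2L1, CENPE, CDC20, PTTG1, KIF2C and RACGAP1. The counts by role, against cells alone and transwell in that order, were then 5 and 4 of the 8 entry genes, 3 and 3 of the 5 checkpoint genes and 4 and 5 of the 8 kinetochore genes. They were 1 and 1 of the 4 genes of anaphase onset, 7 and 7 of the 8 spindle genes and 5 and 5 of the 6 cytokinesis genes. The counts of the chromosomal passenger, condensin and regulator groups did not change.

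The contact cultures were not alike. The median deviation of the members from the mean of cells alone was 0.94 in library 97, 0.82 in 87, 0.59 in 28, 0.37 in 108 and 0.30 in 107. Cells alone ranged from -0.07 to 0.02 in 4 libraries and reached 0.25 in library BEEC.84, which was the highest of its group for 39 of 49 members. Transwell libraries ranged from -0.16 to 0.01, with 0.17 in library 90, the highest of its group for 28. By this median every contact library was above all 10 others. Taken gene by gene, library 107 stood a median of 0.09 above library BEEC.84, with 32 of 49 members higher. Between libraries 97 and 107 of the same group the median difference was 0.65, and all 49 members were higher in 97.

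**Figure D4:**
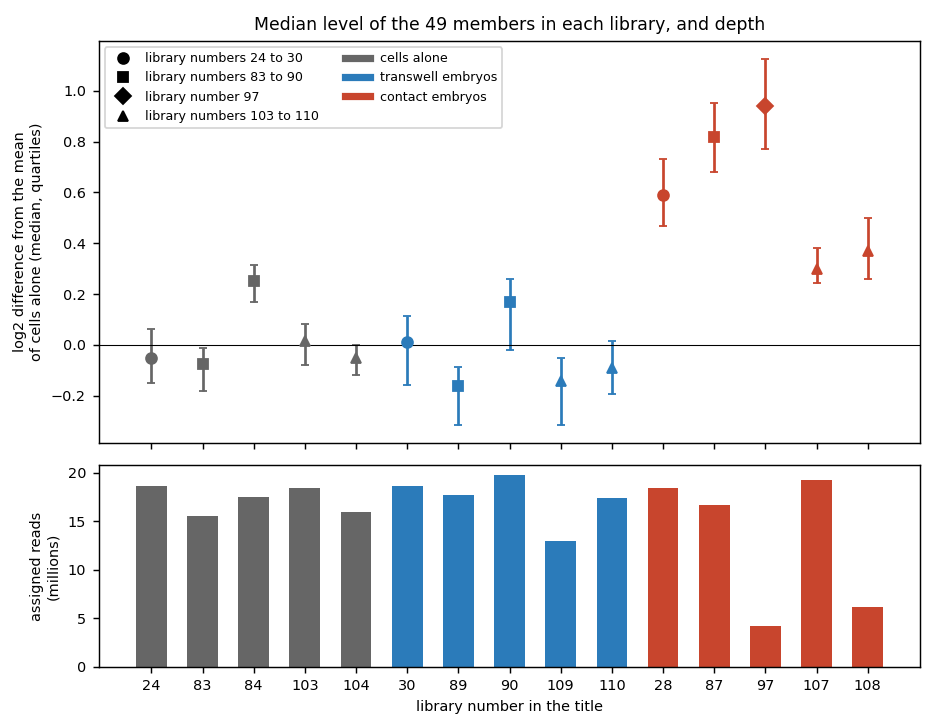
Upper panel, median and quartiles over the 49 members of the log2 difference from the mean of cells alone in each library, with the marker shape giving the run of library numbers; lower panel, assigned reads on a linear axis. Contact libraries lie between 0.30 and 0.94 and the others between -0.16 and 0.25, and the shallow libraries 97 and 108 are the highest and the second lowest of the contact group.

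As a share of all assigned reads, the members took 0.0683% ± 0.00582 (SD, n = 5) in cells alone, 0.0661% ± 0.0053 in transwell and 0.105% ± 0.0191 in contact. The shallow libraries lay on both sides of the contact group, with 0.131% in library 97 and 0.0902% in library 108. The members' median SD between replicates was 0.19 on the log2 scale in cells alone, 0.20 in transwell and 0.30 in contact, beside 0.12, 0.18 and 0.14 over all genes tested. Within groups the members moved together: the median correlation between pairs of members, taken over deviations from group means in 15 libraries, was 0.621, beside -0.002 over all pairs of genes tested. Without library 97 it was 0.555. KIF23 followed the median of the other members most closely (correlation 0.977), then SMC4 (0.957), and RACGAP1 least (0.457). These correlations describe the same libraries and share their depth and run.

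Library numbers fell into runs of BEEC.24 to 30, BEEC.83 to 90 and BEEC.103 to 110, with 97 by itself, and the labels do not say what a run is. Within runs the members' median difference between contact and cells alone was 0.65 in the first (1 library a group), 0.77 in the second and 0.38 in the third. Positive members numbered 48, 48 and 49 of 49, beside 48.8%, 49.7% and 48.4% of all genes tested. Between contact and transwell the same medians were 0.64, 0.85 and 0.48, and between transwell and cells alone 0.065, -0.065 and -0.089. Each run holds 1 or 2 libraries a group, and no test was run within a run. With the run as a term in the fit, 42 and 45 members were called higher in the contact comparisons. Library 97 is the only library of its run, so in that fit it adds nothing to the group differences. Without both shallow libraries 34 members were called against cells alone and 32 against transwell. Calls over all genes moved too. Against cells alone, 1069 genes were called higher and 963 lower with the run as a term, beside 901 and 726 in the main fit. Without both shallow libraries these were 624 and 420. Calls that held in every alternative fit numbered 32 of 39 against cells alone and 30 of 42 against transwell. Of the members not called in the main fit, 7 of 10 and 6 of 7 passed in at least 1 alternative. No share over all genes was taken for these counts. In the authors' deposited table, 43, 0 and 44 of the 49 members were called higher at the same threshold in contact against cells alone, transwell against cells alone and contact against transwell, and 0 lower. The authors' calls rest on the same libraries. The share of all genes they called is not given here, so these counts have no background beside them.

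Other genes of the same processes were counted on lists of whole complexes and steps. Beside each count stand the shares over all genes tested in the fit with all libraries. They were 7.17% higher and 5.78% lower than cells alone, and 3.73% higher and 1.82% lower than transwell. Of 32 further kinetochore and centromere genes tested, 16 rose in contact against cells alone and 11 against transwell (11 and 5 without library 97), with 0 lower. SKA3, which helps kinetochores keep hold of microtubules, averaged 153 ± 2.89 (SD, n = 5) in cells alone, 147 ± 14.6 in transwell and 209 ± 13.6 in contact, a difference of 0.44 ± 0.09 from cells alone (limma adjusted p = 0.00156). NSL1, of the MIS12 complex, rose by 0.54 ± 0.11 (0.00201). Of 30 further spindle, centrosome and midbody genes, 17 rose against cells alone and 15 against transwell (13 and 9 without library 97). SASS6, a protein of the centriole's cartwheel, averaged 199.6 ± 30.7 in cells alone, 294 ± 34.5 in transwell and 460.3 ± 57.0 in contact. It was the one gene of the lists counted here that also rose in the transwell group, by 0.56 ± 0.11 (limma adjusted p = 0.00585), and it rose by 1.21 ± 0.11 in contact (7.25e-08). CKAP2L, a spindle protein related to CKAP2, rose by 1.17 ± 0.14 in contact (2.81e-06).

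Of 16 genes of the anaphase-promoting complex and its partners, 1 rose against cells alone and the same 1 against transwell, with a list median of 0.03 in the first comparison. That is 6.25% of the list, near the 7.17% of all genes called higher than cells alone, beside 3.73% against transwell, where without library 97 the number was 0. That gene was FBXO5, which encodes EMI1, an inhibitor of the complex rather than a subunit (0.69 ± 0.15, limma adjusted p = 0.00358, and against transwell 0.53 ± 0.15, 0.039). Its call against transwell ended without library 30, 89, 109, 110, 28, 87, 97 or 107 (adjusted p = 0.0602, 0.113, 0.0693, 0.0627, 0.0721, 0.102, 0.0698 and 0.0534). CDC16, a core subunit, differed from cells alone by 0.17 ± 0.07 and did not pass (0.0969, and 0.0492 without library 89). Of 12 genes of the MuvB and B-MYB complex and its relatives, LIN52 and MYBL2 rose against cells alone, by 0.39 ± 0.08 and 0.55 ± 0.17 (limma adjusted p = 0.00114 and 0.0441), which is 16.7% of the list. Against transwell LIN52 rose (0.31 ± 0.08, limma adjusted p = 0.0177), which is 8.33% of the list. For LIN52 the second call was lost without library 87 (0.0542) or 97 (0.0585).

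MYBL2, which encodes B-MYB, lost its call in fits without libraries BEEC.24, BEEC.83, BEEC.103, BEEC.104, 30, 89, 28, 87 and 97 in turn (adjusted p = 0.0779, 0.101, 0.0856, 0.0956, 0.0501, 0.0515, 0.0943, 0.109 and 0.1). Of 14 cohesin genes and further condensin subunits, CDCA5, NCAPD2, NCAPD3, NCAPG2 and RAD21 rose against both groups and 9 passed neither test (without library 97, 5 rose against cells alone and 1, NCAPG2, against transwell). NCAPG2, of condensin II, rose by 0.51 ± 0.09 against cells alone (limma adjusted p = 0.00036) and by 0.65 ± 0.09 against transwell (6.02e-05). CDCA5, sororin, which keeps cohesin on chromatin, rose by 0.81 ± 0.17 (0.00318) and 0.66 ± 0.17 (0.029), the latter lost without libraries 89, 110, 28, 87 and 97 in turn (0.0573, 0.0791, 0.0512, 0.0868 and 0.0824). Of 14 genes of the control of mitotic entry and exit, CHEK1, GTSE1, MASTL and PPP2CA rose against cells alone and 3 genes against transwell (2 and 1 without library 97). MASTL, the Greatwall kinase that restrains a phosphatase during mitosis, averaged 49.9 ± 7.84 (SD, n = 5) in cells alone and 124 ± 41.1 in contact, a difference of 1.25 ± 0.19 (limma adjusted p = 9.31e-05). CHEK1, a kinase that halts entry after DNA damage, rose by 0.62 ± 0.16 (0.0106, and 0.115 without libraries 97 and 108).

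Of 35 DNA replication genes, 21 rose in contact against cells alone and 11 against transwell (15 and 6 without library 97), with 0 lower and medians of 0.40 and 0.37. MCM3, of the replicative helicase, rose by 0.61 ± 0.09 and 0.58 ± 0.09 (limma adjusted p = 4.3e-05 and 0.000225). PRIM2, of the primase, rose by 0.62 ± 0.10 (0.000133) and 0.33 ± 0.10 (0.0466), and the second call ended in fits without any of libraries BEEC.83, BEEC.84, BEEC.103, BEEC.104, 30, 89, 109, 110, 28, 87, 97 and 107 (adjusted p = 0.0529 to 0.122). Among 22 G1 cyclins and cell cycle brakes, CDK2 and CDKN2D rose and CCNG2, CDKN1A and MDM2 fell against cells alone. The number higher, 9.09% of the list, is near the 7.17% of all genes, and the number lower is 13.6%, where 5.78% of all genes were lower. Without library 97 the counts were 1 higher, with CDK2 no longer called, and 3 lower. CDKN2D, an inhibitor of the G1 kinases, rose by 0.65 ± 0.15 (0.00683). CDKN1A, which encodes the inhibitor p21, averaged 6759 ± 268 (SD, n = 5) in cells alone, 5408 ± 472 in transwell and 4291 ± 455 in contact. Its log2 differences were -0.66 ± 0.08 for contact minus cells alone, -0.33 ± 0.08 for transwell minus cells alone and -0.34 ± 0.08 for contact minus transwell (limma adjusted p = 1.96e-06, 0.0258 and 0.0103). The transwell call of CDKN1A ended without libraries BEEC.83, BEEC.103, BEEC.104, 30, 90 and 109 in turn (0.069, 0.0797, 0.0811, 0.0523, 0.0572 and 0.0719).

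**Figure D5:**
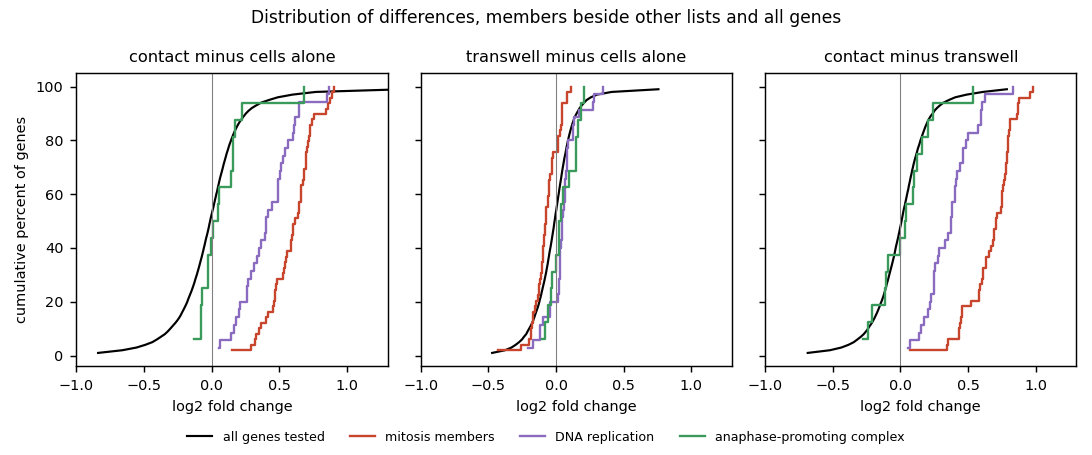
Cumulative distributions of log2 fold changes in the 3 comparisons for all genes tested (black), the 49 members (red), 35 DNA replication genes (purple) and 16 genes of the anaphase-promoting complex (green); the horizontal axis ends at -1 and 1.3. In both contact panels the members lie furthest to the right (medians 0.62 and 0.71) with DNA replication between (0.40 and 0.37), and in the transwell panel the members' median is -0.08.

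Markers of other cells were summed in the same libraries. The 10 epithelial markers summed to 50901 to 67853 normalized counts in cells alone, 50239 to 70662 in transwell and 47558 to 65977 in contact, and the 10 stromal markers to 361000.1 to 385095, 315699 to 383281 and 341532 to 408054, so that both lists overlapped between groups. LUM, a stromal proteoglycan, was the stromal marker called higher in contact than in cells alone (0.42, limma adjusted p = 0.0135). The endothelial and smooth muscle list summed to 3691 to 6293, 3083 to 5303 and 3454 to 4028, and the leukocyte and red cell list to 224 to 576, 197 to 419 and 167 to 555, with CD3D, LYZ and HBB at 0 in all libraries. CD14, a monocyte marker, was lower in contact (-0.52, limma adjusted p = 0.00329). The part of these cells in the results was not tested. Of 21 embryo and trophoblast markers in the table, 8 were at 0 in every library, including NANOG, and 15 had at most 3 reads in any library, including POU5F1 and SOX2. Others were read in cells alone as well. IFNT averaged 42.8 in cells alone, 43.0 in transwell and 47.8 in contact, and TFAP2C 26.1, 23.0 and 21.1. Whether embryo RNA was present was not tested. The embryo list summed to 1191 to 1373 in cells alone, 1215 to 1429 in transwell and 1183 to 1353 in contact, nearly all of it GATA2. SSLP1, one of its members, averaged 20.3 in cells alone, 30.2 in transwell and 34.5 in contact. Transwell differed from cells alone by 0.56 and did not pass (limma adjusted p = 0.332), and contact differed by 0.70 (0.0205), a call lost without libraries BEEC.24, BEEC.84, 28 and 87 in turn (0.0516, 0.0599, 0.0713 and 0.0647).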

How the data were processed

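The deposited table gives, per gene and library, a signal: the read count over that library's size factor. In all 15 libraries, 100% of values came out whole, with a tolerance of 0.01 reads, once divided by the worth of 1 read, so the reads were recovered. The submitters' processing notes name FastQC 0.71, HISAT2 2.1.0, featureCounts 1.6.2 and DESeq2 1.18.1. Genome build, annotation and strand setting were not given in the sources used here, so reads of overlapping or antisense genes cannot be told apart. Also deposited are the authors' log2 fold changes with Wald scores, p-values and FDR for each comparison.

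The main test was limma 3.58.1 in R 4.3.3 (mean-variance trend, robust empirical Bayes) on log2(value + 1), with one coefficient per group over 15 libraries. Genes needed a value of at least 10 in at least 5 libraries (12559 of 19994; 3511 were 0 in all libraries), and p-values were adjusted by Benjamini-Hochberg over all genes tested. The pseudocount understates changes of low genes. The procedure was tested on counts simulated gene by gene, with the same spread in every group. The members moved together and varied more in contact, so that test does not measure the error of their calls. Alternatives covered pseudocounts, filters, scaling, edgeR 4.0.16, DESeq2 1.42.0, voom, library weights, the run of library numbers and leaving out libraries. On the recovered reads, edgeR called, higher and lower, 928 and 699 genes for contact against cells alone, 188 and 19 for transwell against cells alone, and 473 and 211 for contact against transwell.

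The members and lists were chosen with earlier results of these data known. The rule for genes given by library took, in each role, the 2 with the smallest and the 1 with the largest p in contact minus cells alone, and those called in only one contact comparison; in other lists, the 2 with the smallest p. LUM, CD14 and SSLP1 were named after their values were seen.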

Additional observations from a re-analysis of the deposited data

Results flagged for a closer look

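In each gene and group the highest or lowest library was compared with the gap to its nearest neighbour (Dixon's test at the 95% level, a gap of over 0.71 of the group's range for 5 libraries). Chance marks about 1 in 20 groups. Of the members, 10 of 147 gene and group combinations were marked, 5 of them through library BEEC.84 of cells alone. In that library NDC80 was at 105 normalized counts (others 81.4 to 84.6), CKAP2 at 711 (605 to 633), KIF23 at 265 (187 to 205), SMC4 at 764 (594 to 639.6) and MELK at 99.2 (73.6 to 79.4). CHEK1, of another list, was also high there, at 137 (93.2 to 104.2).

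In contact library 97, CDK1 was at 225 (others 127 to 149.6), SPC25 at 90.7 from 27 reads (40.6 to 43.2) and CDKN2D at 60.5 from 18 reads (38.8 to 44.97). FBXO5 was at 114 in contact library 87 (89.6 to 96.4). CENPA was at 106 in transwell library 30 (82.6 to 88.8). The remaining values were low: CDC20 was at 70.3 in transwell library 109 (103.9 to 117), and UBE2C at 129 in library BEEC.104 of cells alone (177 to 195).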

How the results depend on the processing

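No contact difference of a member changed sign in any alternative fit, while transwell differences from cells alone, which were not called, did for some. Genes called lower in contact than cells alone numbered 726, but 1127 under upper quartile scaling and 420 without libraries 97 and 108, and 473 to 980 leaving out 1 library. Upper quartile scaling, which moved the median of all genes to -0.06, gave 698 higher beside those 1127, against 901 and 726, and 390 higher and 323 lower than transwell, against 469 and 229; members called higher were then 37 and 41. Genes lower in transwell than cells alone numbered 14, but 33 with DESeq2, 22 with library weights, 52 with the run as a block, 50 with that block and no library 97, and 6 without libraries 97 and 90 (3 to 19 leaving out 1 library). Genes lower in contact than transwell numbered 229, but 111 with only these groups, 344 with the block, 346 with the block and no library 97, 142 without libraries 97 and 90, and 84 without 97 and 108, where 306 were higher against 469 (leaving out 1 library, 115 to 349 lower and 325 to 561 higher). Leaving out 1 library gave 34 to 43 members higher than cells alone, 34 to 44 higher than transwell and 0 to 1 lower in transwell. The members' medians within runs differed most from 0.62, -0.08 and 0.71 at 0.38 (BEEC.103 to 110), 0.065 (BEEC.24 to 30) and 0.48 (BEEC.103 to 110). The causes were not tested. The fits without libraries 97 and 90, and with the block and no library 97, were chosen after seeing the data. Since library 97 is alone in its run, the block with and without it is in effect a single check. The labels describe replicates each run on a single plate but do not tie libraries to plates. No analysis paired by plate was therefore possible, and the main fit treated the libraries as unpaired. Depth limits SPC25 most, with 27 reads in library 97 and 18 in library 108.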
